A study of Caenorhabditis elegans with 2 samples.

Results

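The regions described here are the weaker peaks of a ChIP-seq experiment on the zinc finger protein ZTF-11 of *Caenorhabditis elegans* that had some overlap in both replicates. They were taken from the relaxed list of 30000 peaks called on the pooled replicates. Peaks were ranked by the authors' signal value, the 3000 highest were dropped, and those on chromosomes II, III, IV, V and X were kept if they overlapped at least 1 peak of replicate 1 and at least 1 of replicate 2 by 1 bp or more. This gave 1732 peaks, called the shared weaker peaks, out of 22885 weaker peaks on these chromosomes. The pooled signal and the overlaps chose them, so neither is a finding. They were compared with the other 21153 weaker peaks.

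The samples were 1 group of 2 biological replicates of whole L4 larvae of strain OP236, with males and females pooled. Both carry the mutation *unc-119*(ed3) on chromosome III and the integrated transgene wgIs236, which targets *ztf-11*, and the immunoprecipitation was against eGFP-tagged ZTF-11. The labels do not give the number of copies or the promoter of the transgene, larvae were pooled over all tissues, and no strain without the tag was analysed here. Read counts are not part of the peak lists, and the depth behind each value is unknown. The intervals below are exact binomial or, for a median, distribution-free 95% intervals. They cover counting error only, and neighbouring peaks are not independent.

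ZTF-11 is a worm relative of vertebrate Myt1, a transcription factor with C2HC zinc fingers. In worms and vertebrates the family is known for repressing non-neuronal genes while neurons form, and its vertebrate members bind a core with AAGTT. In ChIP-seq, a relaxed list is long on purpose: it reaches into background so that the reproducibility of the ranking can be judged, and a weak peak in it is a candidate region and not a called binding site.

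The replicate lists stood apart before any overlap was taken. Replicate 1 held 30000 peaks, with a median width of 390 bp, and replicate 2 held 22869 peaks narrower than the pooled ones, which were 280 bp wide, so an overlap of 1 bp allowed different distances in each. The −log10 of the q value was at most 0.629 in replicate 1, while in replicate 2 the lowest value was 2.58 and the highest 3.57. Base composition differed as well. The median G and C content within 100 bp of the summit was 33.8% over the 25539 replicate 1 peaks on the 5 chromosomes and 43.3% over the 19176 replicate 2 peaks, against 35.4% for the sequence of these chromosomes as a whole. In those of the 1000 strongest peaks of each list that lay there it was 34.3% and 48.3%. Whether library preparation, depth or the control contributed to this difference was not tested.

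Sequence at the pooled summit is shown for the shared weaker peaks whose overlapping replicate peaks had the highest ranks in the replicate lists. Of the 10 with the smallest sum of the 2 replicate ranks, 6 had no annotated UTR within 50 bases of the pooled summit, and these are printed from the plus strand of the RefSeq genome (WBcel235, the coordinates of ce11). Capitals mark the E-box CANNTG, the recognition sequence of basic helix-loop-helix factors, and GAGAGA on either strand.
*nhl-1*, chrIII:9148724-9148824: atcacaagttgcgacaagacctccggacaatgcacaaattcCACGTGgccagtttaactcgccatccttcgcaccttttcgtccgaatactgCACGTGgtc
*taf-3*, chrX:16342471-16342571: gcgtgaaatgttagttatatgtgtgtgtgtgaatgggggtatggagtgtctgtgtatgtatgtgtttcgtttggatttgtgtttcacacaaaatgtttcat
C30E1.4, chrX:16930490-16930590: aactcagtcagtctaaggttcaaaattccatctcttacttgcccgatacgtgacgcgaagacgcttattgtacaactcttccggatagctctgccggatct
*nhl-2* and *tag-340*, chrIII:4899788-4899888: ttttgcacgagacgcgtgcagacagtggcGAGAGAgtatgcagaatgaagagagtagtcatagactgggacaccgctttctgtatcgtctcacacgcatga
*fbxb-72*, chrV:724019-724119: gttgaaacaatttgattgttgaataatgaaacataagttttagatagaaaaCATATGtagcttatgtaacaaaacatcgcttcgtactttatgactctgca
F25E5.1 and *srh-89*, chrV:7465597-7465697: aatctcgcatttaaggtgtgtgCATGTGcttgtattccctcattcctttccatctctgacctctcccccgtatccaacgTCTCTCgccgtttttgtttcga
Their G and C content over the printed bases ran from 28.7% at *fbxb-72* to 51.5% at *nhl-1*, so even these few differed widely in composition. The *nhl-1* window held 2 copies of CACGTG, the palindromic form of the E-box, and the *taf-3* and C30E1.4 windows held neither motif. The strongest overlapping replicate 1 peak lay wholly outside the printed bases at *nhl-1*, *taf-3* and *nhl-2*. There the printed sequence is not the sequence under the peak that gave the replicate 1 rank.

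The number of shared peaks fell steadily down the pooled ranking. Of all weaker peaks, 7.57% were shared, and the rule itself sets this figure. In blocks of 3000 ranks the share was 15.4% in the first block below the 3000 strongest, 5.89% in the fifth and 3.06% in the last. Among the 2538 of the 3000 strongest pooled peaks that lay on these chromosomes, 31.5% overlapped both replicates. The last peak dropped, at rank 3000, had a signal of 11.459 and the next, the first one kept for the overlap step, a signal of 11.4589, so the threshold cuts through a continuous range. The shared peaks had signals from 5.81 to 11.5 with a median of 8.49, and the others from 5.80 to 11.5 with a median of 7.39.

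**Figure D1:**
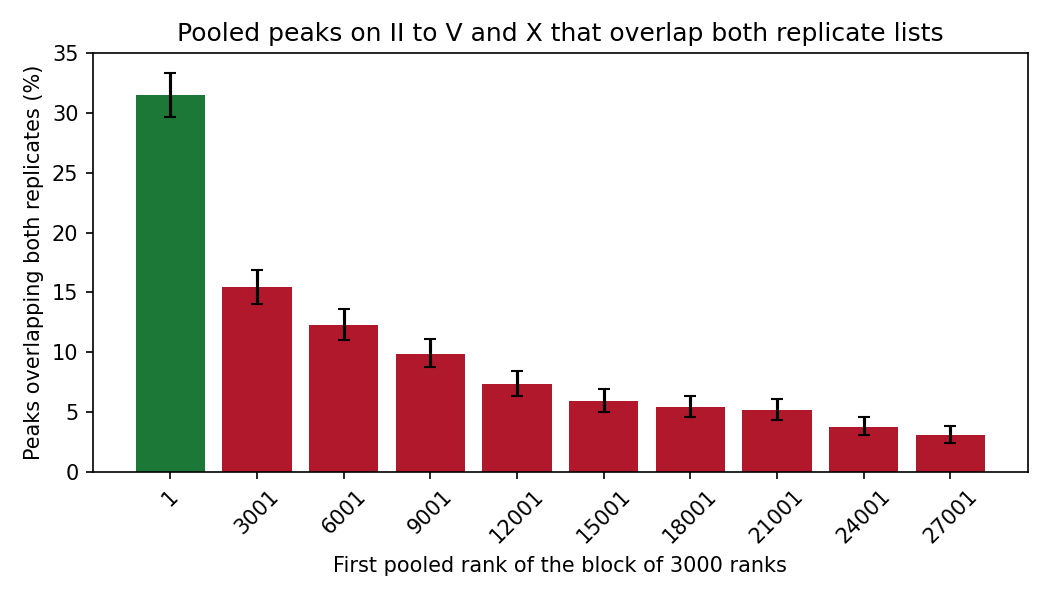
Share of pooled peaks on chromosomes II to V and X that overlapped a peak of both replicates by 1 bp or more (y axis, %), in blocks of 3000 pooled ranks (x axis, first rank of the block). Error bars are exact 95% binomial intervals. The green bar is the block of the 3000 strongest peaks (31.5%), and the red bars, the shared weaker peaks, fall from 15.4% to 3.06%.

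Support by one replicate went with less support by the other. Replicate 1 peaks overlapped 13509 of the 22885 weaker peaks (59%) and replicate 2 peaks 5167 (22.6%), while 5941 overlapped neither. Of the weaker peaks with a replicate 1 peak, 12.8% also had a replicate 2 peak, and of those without one 36.6% did. The weaker part of the pooled list was thus made up mostly of regions found in a single replicate. Only regions called on the pooled replicates were counted, a choice that can itself set the direction of this relation. The description follows from the rule's own overlaps and carries no test. Without replicate 1, the rule would keep 5167 peaks, and without replicate 2 it would keep 13509.

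At the shared peaks the summits of the replicates were often apart. The distance between the summits of the strongest overlapping replicate 1 and replicate 2 peaks had a median of 155 bp (95% interval 149 to 164), with a highest value of 540 bp. It was within 100 bp at 548 of 1732 peaks, 31.6% (29.5 to 33.9), and the distribution was nearly flat from 0 to 249 bp, with 14.3% to 16.9% of peaks in each bin of 50 bp. Among the 800 shared peaks of the 3000 strongest, the median was 99 bp (91 to 109) and 50.5% were within 100 bp. The shared weaker peaks had summits farther apart than these 800. These sets, and the rank bands that follow, are split by pooled signal, which can itself bear on the distance between replicate summits. The differences are therefore a description only. Over 3 rank bands, ending at ranks 10000, 20000 and 30000, the share of shared weaker peaks with summits within 100 bp was 37.3%, 28.5% and 24%.

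**Figure D2:**
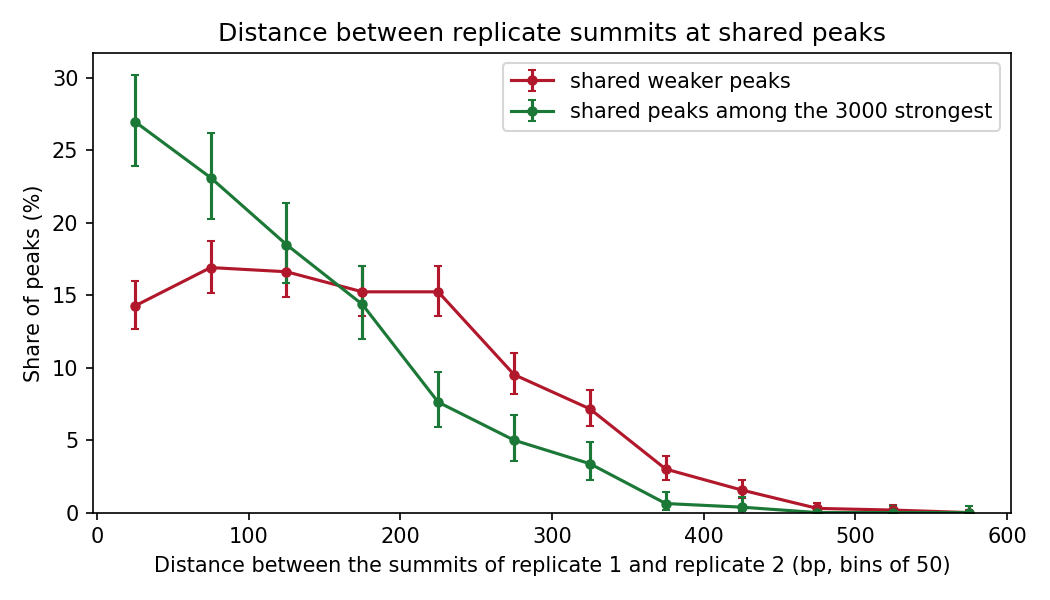
Share of peaks (y axis, %) by the distance between the summits of the 2 replicates (x axis, bp, in bins of 50), for the 1732 shared weaker peaks (red) and the 800 shared peaks among the 3000 strongest (green). Error bars are exact 95% binomial intervals. The first bin holds 14.3% of the weaker and 27% of the strong shared peaks.

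The pooled summit lay between the replicate summits at 1097 of the shared weaker peaks (63.3%) and within 100 bp of both at 477 (27.5%). The peaks of the replicates overlapped each other directly at 1501 (86.7%); at the remainder the pooled peak alone joined them. The 1732 pooled peaks drew on 1692 distinct replicate 1 peaks and 1705 distinct replicate 2 peaks, so a few replicate peaks served more than 1 pooled peak. Most of the overlapping replicate peaks were themselves weak, with a median rank of 14277 in replicate 1 and 12073.5 in replicate 2. Only 5 shared peaks overlapped a peak within the 1000 strongest of each replicate, and 62 one within the 5000 strongest of each. In those 62, to which the same limit applies as to the 10 peaks described next, the median distance between replicate summits was 206.5 bp.

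The 10 shared weaker peaks with the smallest sum of replicate ranks are described one by one. They were picked for high replicate ranks among peaks that the rule keeps below the 3000 strongest, a choice that can bear on the distance between replicate summits, so their distances are a description of these 10 only. The first lay at T26A8.4 on chromosome IV, 8431340 to 8431619. It ranked 56 in replicate 1 and 484 in replicate 2, but 3443 in the pooled list, and the replicate summits lay 323 bp apart on opposite sides of the pooled one. A pooled peak of rank 774 had its summit 329 bp away, under the replicate 1 peak. The peaks of the replicates thus reached the weaker pooled peak from its edges.

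The second lay on IV at 9444642 to 9444921, in the promoter window of F38E11.9 beside the small nuclear RNA gene F38E11.11. Its ranks were 461 and 129 in the replicates and 3740 in the pooled list, with a stronger pooled peak 212 bp away. The third, in an exon of *nhl-1*, which encodes a RING finger protein with NHL repeats, lay on III at 9148634 to 9148913. It ranked 144 and 551 in the replicates, with summits 363 bp apart, and the nearest summit of the 3000 strongest pooled peaks was 36037 bp away. Of the 10, this peak lay farthest from a stronger one.

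The fourth lay in an exon of *ins-13*, an insulin-like peptide gene, at 5544396 to 5544675 on II. It also lay within 300 bp of *sls-2.3*, which encodes a spliced leader RNA of the kind added to transcripts from operons. It ranked 570 and 209, and a pooled peak of rank 361 had its summit 225 bp away. An intron of *taf-3*, a gene for a TBP-associated factor of the general transcription machinery, held the fifth at 16342381 to 16342660 on X, with ranks of 937 and 233 and a distance of 363 bp between replicate summits. The remaining ones lay 6604 bp downstream of the 5′ end of C30E1.4, in an exon of *dyc-1*, and in the promoter windows of *nhl-2* and *tag-340*, of *fbxb-72*, and of F25E5.1 and *srh-89*. Of the 10, 8 had the summit of a stronger pooled peak within 2000 bp. The share within 2000 bp was not counted over all 1732 or over the other weaker peaks. Over all 1732 the distance to the nearest stronger summit had a lower quartile of 3949.25 bp and a median of 9807.5 bp. Over the other weaker peaks these were 4740 and 11677 bp. At 3 of the 10 a replicate peak overlapped the stronger peak as well. Over all 1732, such an overlap was found at 48 (2.77%).

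**Figure D3:**
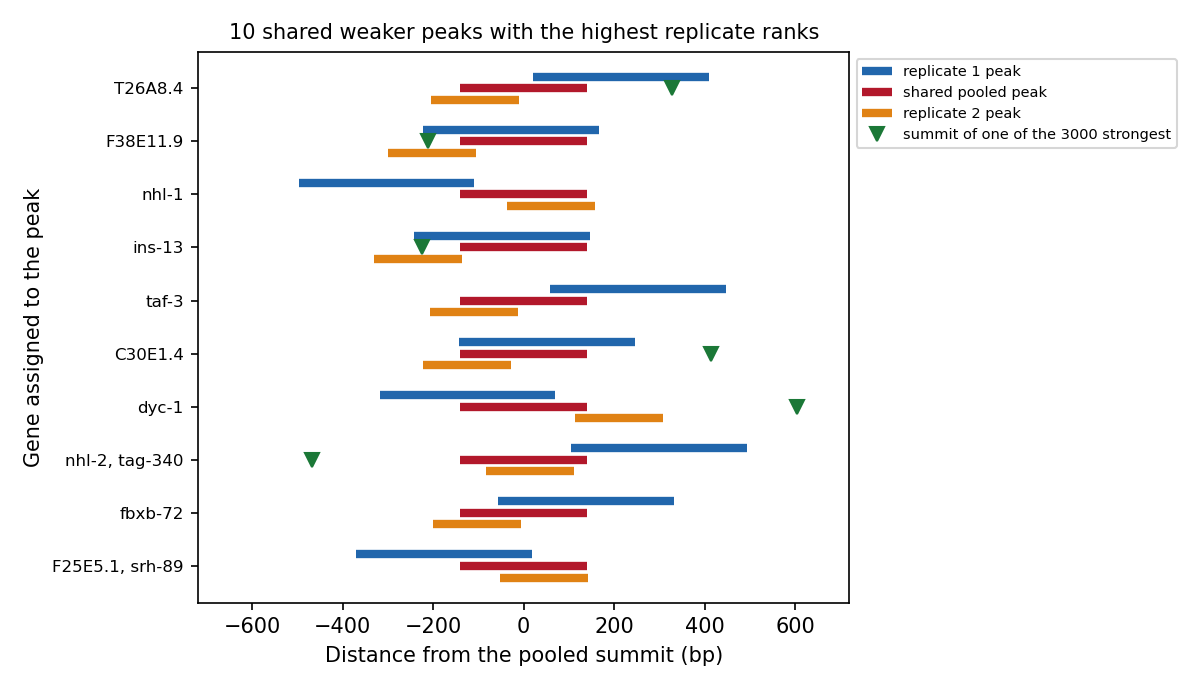
Map of the 10 shared weaker peaks with the smallest sum of replicate ranks, labelled by the assigned gene (y axis), with distance from the pooled summit in bp (x axis). Red bars are the pooled peaks, blue and orange bars the strongest overlapping peaks of replicates 1 and 2, and green triangles the nearest summit of the 3000 strongest pooled peaks where it falls in the range drawn. At all 10 the replicate peaks are offset from each other, by 175 to 363 bp between summits.

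The *nhl-2* peak had the strongest replicate 2 support of all shared weaker peaks. NHL-2 is a TRIM-NHL protein that acts with the microRNA pathway in developmental timing. The peak, at 4899698 to 4899977 on III, had a pooled signal of 9.02, ranked 46 in replicate 2 (signal 15.6) and 1956 in replicate 1. Its replicate 2 summit lay 15 bp from the pooled summit and its replicate 1 summit 300 bp from it. A pooled peak of rank 466 had its summit 469 bp away, and the GAGAGA in the printed window lay within 50 bp of the weaker summit.

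The 5 shared peaks with the highest pooled signal had less support in the replicates. They lay in an exon of R13H4.5 (signal 11.456), in an exon of *kel-8*, a kelch repeat gene (11.451), and between genes nearest to *lrch-1*, *nhr-46* and *basl-1*. Their ranks ran from 1520 to 7787 in replicate 1 and from 1974 to 16369 in replicate 2. In replicate 1 all 5 stood above the median rank of all shared weaker peaks, 14277. In replicate 2 that median was 12073.5, and only the peak at *basl-1*, at rank 16369, stood below it. Replicate summits lay 49 bp apart at *lrch-1* and 149 to 333 bp apart at the other 4. The weakest shared peak had rank 29934.

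Base composition separated the shared weaker peaks from the others. The median G and C content within 100 bp of the summit was 39.3% (38.8 to 39.3) at the shared peaks and 35.3% (35.3 to 35.8) at the others. It was higher at the shared peaks on each of the 5 chromosomes, with medians of 37.8% to 40.3% against 34.3% to 36.3%, and in each of the 3 rank bands. Positions 1000 bp to either side of the shared summits had 35.8%. No test was made between the sets here or below, since their peaks come from the same 2 libraries and are not replicates. The number of chromosomes and rank bands that show a direction is given in its place.

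The composition of the shared peaks lay between those of peaks found in a single replicate. The 11777 weaker peaks with a replicate 1 peak only had a median of 33.8%, and the 3435 with a replicate 2 peak only had 41.8%. Those with neither had 35.8%. The rule without replicate 1 gave a median of 40.8%, and without replicate 2 it gave 34.3%, so the value for the shared peaks depended on which library was used. The same order held within single shared peaks: at the replicate 1 summits the median was 36.8% and at the replicate 2 summits 41.8%. The replicate 2 summit was the richer in G and C at 1285 of 1732 peaks (74.2%), and the median difference, replicate 2 minus replicate 1, was 3.98 points (3.48 to 4.48). Each replicate thus placed its summit toward the composition typical of its own list. The share of weaker peaks that were shared was 4.38% below 35% G and C, 8.11% from 35% to 40% and 12.4% at 40% or more.

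**Figure D4:**
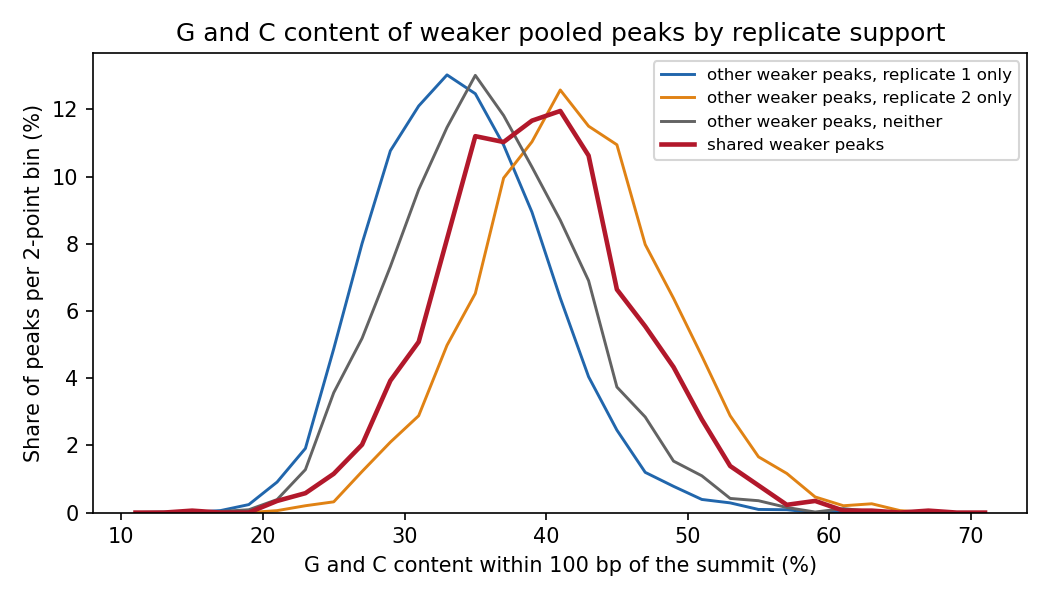
Distribution of G and C content within 100 bp of the pooled summit (x axis, %, bins of 2 points; y axis, share of peaks in the set, %) for the shared weaker peaks (red) and for the other weaker peaks with a replicate 1 peak only (blue), a replicate 2 peak only (orange) or neither (grey). The medians are 39.3%, 33.8%, 41.8% and 35.8%.

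Summits in exons were more frequent among the shared peaks. Outside promoter windows, 548 summits lay in exons of protein-coding genes, 31.6% (29.5 to 33.9), against 23.8% (23.2 to 24.4) of the others. The shared peaks were higher on all 5 chromosomes, from 27.3% against 25.4% on V to 33.6% against 21% on IV, and in all 3 rank bands. G and C content moved with this difference. At 40% G and C or more, exons held 39.9% of shared and 38.7% of other summits, from 35% to 40% they held 31.1% and 28.9%, and below 35% they held 18.2% and 12.9%. With replicate 1 support only the share was 19%, and with replicate 2 support only it was 38.9%. The excess over the other peaks was thus small where G and C content was high, and it was present below 35%.

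Introns and intergenic sequence held fewer of the shared summits. In introns lay 364 of them, 21% against 25% of the others, and between genes 309, 17.8% against 23.1%. The shared peaks were lower on all 5 chromosomes in each class. With replicate 1 support only the shares were 26.4% in introns and 26% between genes. With replicate 2 support only they were 20% and 15.2%, so low shares were not particular to the shared peaks. Both differences between the shared and the other peaks varied with G and C content. Introns held 29.1% of shared and 29.5% of other summits below 35%, 22.4% and 23.3% from 35% to 40%, and 15.3% and 18.7% at 40% or more. Intergenic sequence held 18.4% and 28.6% below 35%, 18.8% and 19.9% from 35% to 40%, and at 40% or more the direction turned, with 131 of 776 shared summits (14.3% to 19.7%) and 898 of 5483 others (15.4% to 17.4%), so close that counting error covers it.

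Promoter windows held a similar share of both sets over all weaker peaks, but not at low G and C content. The window was set around the annotated 5′ ends of protein-coding genes, with 1000 bp before and 200 bp after each. It held 511 shared summits, 29.5% (27.4 to 31.7), against a background of 28.1% among the other weaker peaks. The shared peaks were higher on 4 of 5 chromosomes and in 2 of 3 rank bands; in the band ending at rank 10000 they had 27.1% against 28.9%. Among the 800 shared peaks of the 3000 strongest the share was 37.8% (34.4 to 41.2). Below 35% G and C, 34.3% (29.9 to 38.8) of the shared summits lay in the window against 29.1% of the others, while from 35% to 40% the shares were 27.7% and 28%, and at 40% or more 27.8% and 26.3%. In windows of 500 and 100 bp the shares were 17.7% and 15.7% over all. Below 35% G and C the narrow window held 106 of 461 shared summits (95% interval 19.2% to 27.1%) and 1648 of 10059 others (15.7% to 17.1%). In that band, peaks with replicate 1 support only had 28.9% in the wide and 16% in the narrow window. Those with replicate 2 support only had 31% and 20.9% (17.4 to 24.6), and this interval overlapped that of the shared peaks. Close to the 5′ end, from 200 to 1 bp before it, lay 131 shared summits, 7.56% (6.36 to 8.91), against 5.48% (5.18 to 5.79) of the others. In the 200 bp that begin at the 5′ end lay 7.33% of the shared summits and 5.76% of the others. In the next 200 bp upstream the shares were 4.04% and 4.45%. The shared summits were thus more frequent close to 5′ ends, on either side, which the wide window does not show. Of the 3000 strongest peaks, 8.75% lay from 200 to 1 bp before a 5′ end, so on that side this was not particular to the shared weaker peaks. In the 200 bp that begin at the 5′ end the strongest had 6.19% (5.28 to 7.19), an interval that included the share of the others. In the widest window, of 2000 and 500 bp, the shares were 50.9% and 48.5%.

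**Figure D5:**
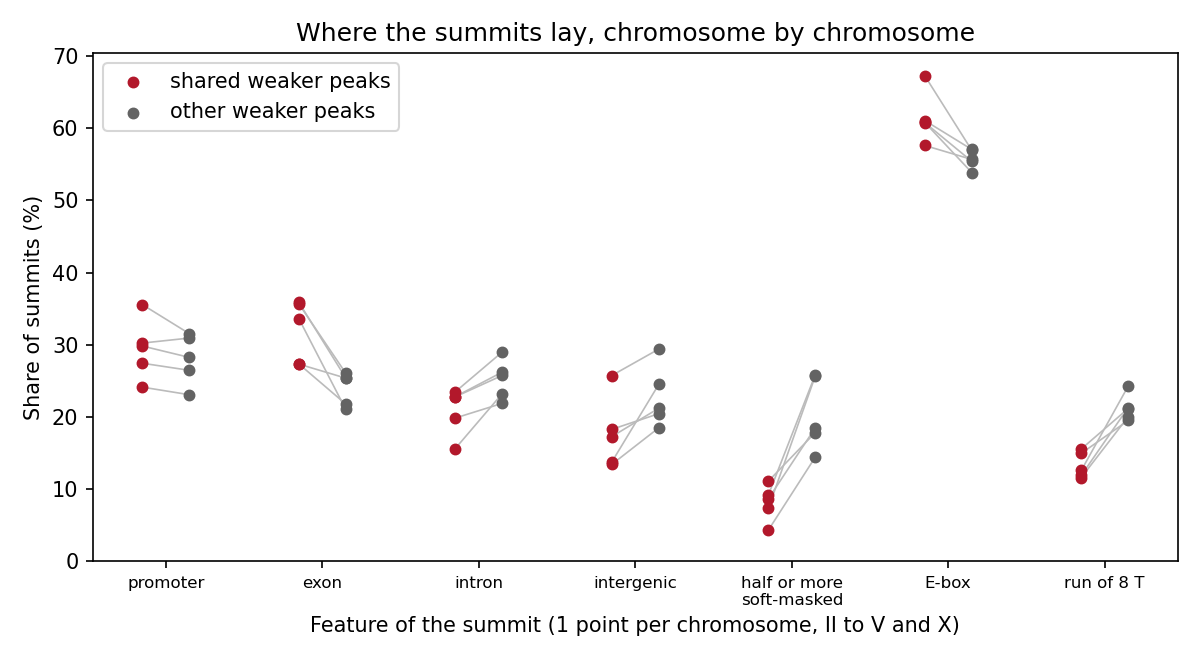
Share of summits (y axis, %) with each feature (x axis) on chromosomes II, III, IV, V and X, 1 point per chromosome, for the shared weaker peaks (red) and the other weaker peaks (grey), with lines joining the same chromosome. Exons and E-boxes are higher and introns, intergenic sequence, soft-masked sequence and runs of T lower at the shared peaks on all 5 chromosomes. Promoters are higher on 4.

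Repeat-rich sequence was less frequent at the shared peaks. At 140 of them (8.08%) 50% or more of the 201 bases around the summit were soft-masked as repeats or low-complexity sequence in the RefSeq genome, against 20.1% of the others. The direction held on all 5 chromosomes, with 4.29% to 11.1% against 14.4% to 25.8%. It also held in each band of G and C content: 21.9% against 34.4% below 35%, 5.05% against 8.98% from 35% to 40%, and 1.80% against 5.18% at 40% or more. With replicate 1 support only the share was 25.3%, and with replicate 2 support only 5.24%.

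Short motifs followed composition to a large extent. Within 100 bp of the summit, the Myt1-type 7-mer AAAGTTT was present on one strand or the other at 209 of 1732 shared peaks (95% interval 10.6% to 13.7%), against 16% of the others and 14.8% of 3464 windows of the same length 1000 bp to either side. It was lower at the shared peaks on all 5 chromosomes, but at 40% G and C or more the shares were 7.73% and 8.12%, and below 35% they were 21% and 21.7%. The shorter AAGTTT, which the 7-mer contains, gave 25.8% against 32.2%. Neither form was more frequent at the shared summits than at the others. With replicate 1 support only the 7-mer was at 18.3% of summits, and with replicate 2 support only at 8.30%.

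The E-box CANNTG lay near 61.7% of shared summits, 55.9% of the others and 53.4% of the windows to either side. It was higher at the shared peaks on all 5 chromosomes, with 57.6% to 67.3% against 53.9% to 57.1%. By G and C content the shares were 57.7% against 49% below 35%, 59.8% against 60.5% from 35% to 40%, and 65.2% against 63.8% at 40% or more. The form CACGTG, which CANNTG includes, was at 83 shared summits, 4.79% (3.83 to 5.91), against 3.42%, and was higher on all 5 chromosomes. At 40% G and C or more it was at 5.80% and 5.93%. From 35% to 40% it was at 5.45% and 3.72%. The difference in CANNTG was thus largest below 35%, and that in CACGTG from 35% to 40%. With replicate 1 support only the shares were 53.1% for CANNTG and 2.65% for CACGTG, and with replicate 2 support only 63.5% and 5.39%. Both forms were thus at least as frequent with replicate 2 support only as at the shared peaks.

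GAGAGA lay near 218 of 1732 shared summits (11.1% to 14.2%) and 11.2% of the others, and was higher at the shared peaks on 4 of 5 chromosomes. Within bands of G and C content the direction turned, with 6.29% against 7.31% below 35%, and the shared peaks were also lower, by less than 1 point, in the other 2 bands. Runs of 8 T, on either strand, were at 13.3% and 21.2%, TATAAA at 16.9% and 21%, and GCGCGC at 1.62% and 1.26%. The runs of T were lower at the shared peaks in each band of G and C content, from 22.1% against 31.1% below 35% to 6.83% against 8.52% at 40% or more. A match to any of these letters is a description of the window and not a binding site.

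Chromosome X held no larger part of the shared peaks than of the others. It carried 373 of 1732, 21.5% (19.6 to 23.5), against 22.3% of the others and 20.8% of the length of the 5 chromosomes. The numbers on II, III, IV and V were 301, 328, 342 and 388. By chromosome, 7.19% of the weaker peaks on V to 8.65% on III were shared. The central part of the chromosomes, the middle 1 of 3 equal lengths, which in the autosomes is gene-dense, held 38.3% of shared and 35.7% of other summits, with the shared peaks higher on all 5.

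Genes for piRNAs, which are clustered on chromosome IV, went the other way. On IV, 34 of 342 shared summits, 9.94% (6.98 to 13.6), lay within 300 bp of a piRNA gene, against 22% of the others. Peaks there with replicate 1 support only had 26.6%, and those with replicate 2 support only 5.81%. The other peaks beside piRNA genes had a median G and C content of 29.9% and the shared ones 35.8%. So this class followed the same split between the replicates as base composition.

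Beside transfer RNA genes lay 19 shared summits, 1.10% (0.662 to 1.71), against 0.567% of the others and 1.54% of the 3000 strongest. X alone held 11 of the 19, and V held 0. Small nucleolar RNA genes had 9 shared summits within 300 bp (0.520% against 0.321%), small nuclear RNA genes 4 (0.231% against 0.0898%) and microRNA genes 7 (0.404% against 0.189%). The 4 small nuclear RNA genes were F38E11.11, T11F9.15 beside *snr-4*, and the spliced leader genes *sls-2.3* and *sls-2.8*; *sls-2.8* and T11F9.15 were named after their values were seen. Counts this small leave wide intervals (0.238 to 0.984 for the small nucleolar and 0.0630 to 0.590 for the small nuclear RNA genes).

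The summit of a shared peak was within 1000 bp of one of the 3000 strongest at 114 of them, 6.58% (5.46 to 7.85), against 4.28% of the others, and the shared peaks were higher on all 5 chromosomes. At 48 of the 114 a replicate peak also overlapped the stronger pooled peak, which was so at 59 of the others. A shared peak has a replicate peak of each library by the rule, while many of the others have none, so this difference is in part set by the rule and nothing is read from it. The median distance to the nearest of the 3000 strongest was 9807.5 bp at the shared peaks and 11677 bp at the others. Between neighbouring shared peaks it was 31551 bp, and 64 neighbouring pairs were within 1 kb.

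By gene, 554 of 16994 protein-coding genes on these chromosomes had a shared weaker peak in the promoter window, 3.26%. Another weaker peak was there for 32.8%. The 29 gene lists, chosen for the tissues and pathways of the larva, were read against the 3.26%, with no test. Of these, 17 stood above it and 9 had no gene with a shared peak, and most counts were of 0 to 6 genes. In a short list 1 gene is enough to pass 3.26%, as with 1 of 29 chaperone genes (3.45%). The tally thus depends on list size, and no tendency is read from it.

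Among ribosomal protein genes 5 of 54 had a shared peak, 9.26% (3.08 to 20.3). The 4 with the highest pooled signal were *rpl-5* (11.4, a summit shared with the collagen gene *col-38*), *rpl-38* (11.2), *rpl-11.2* (9.88) and *rpl-29* (8.73), all genes of the large subunit. In replicate 2 these peaks had ranks of 16809, 11866, 3240 and 7484. RNA processing genes had 4 of 34, 11.8%, which rest on 3 summits. They were *snr-4*, a gene for an Sm protein of the spliceosome (10.4, ranks 1213 and 3808 in the replicates), *rsp-1* and *rsp-2*, SR splicing factor genes with 1 summit between them (7.32), and *hrpa-1*, an hnRNP gene (5.88). Translation factors had 0 of 26. Ribosomal protein and RNA processing genes also stood above all genes for other weaker peaks, at 40.7% and 44.1% against 32.8%, and for the 3000 strongest, at 22.2% and 23.5% against 5.39%. Their higher shares were thus not particular to the shared peaks.

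Neural and developmental lists held 0 to 2 genes each. Pan-neuronal genes had 2 of 24, 8.33% (1.03 to 27): *egl-21*, which encodes a carboxypeptidase that processes neuropeptides (pooled signal 11), and *unc-76*, needed for axon outgrowth (7.65). At *egl-21* the replicate summits lay 378 bp apart. Proneural and neurogenesis regulators had 2 of 21, 9.52% (1.17 to 30.4): *hlh-29*, a bHLH gene of the REF-1 family (8.97), and *egl-46*, a zinc finger gene that acts in the last steps of neuron lineages (7.11). Heterochronic genes had 2 of 16, 12.5% (1.55 to 38.3), the highest share of the 29 lists. They were *nhl-2* (9.02) and *dre-1*, an F-box gene of developmental timing (6.30, with a distance of 255 bp between replicate summits). The promoter windows of heterochronic genes had a median length of 2403.5 bp, against 1201 bp for all genes. Other weaker peaks lay there for 50% of them, against 32.8%, and the strongest peaks for 31.25%, against 5.39%. For pan-neuronal genes these shares were 37.5% and 29.2%. The higher shares of these 2 lists were thus not particular to the shared peaks. Proneural and neurogenesis regulators had 28.6% and 4.76%, below those of all genes. Hox and Wnt genes had 1 of 23, the Nemo-like kinase gene *lit-1* (10.7). Neuron type selectors had 0 of 23, Notch pathway genes 0 of 17 and homeobox *ceh* genes 0 of 55 (upper bound 6.49%). Neuropeptide genes had 2 of 124, *flp-34* (7.67) and *flp-1* (6.26), 1.61% (0.196 to 5.70).

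Large gene families spread to either side of the average. Chemoreceptor genes had 20 of 1266, 1.58% (0.968 to 2.43), with *srbc-20* (11.4), *sri-2* (11.2), *str-146* (11) and *srd-17* (9.33) highest. F-box genes had 6 of 299, 2.01% (0.740 to 4.32), led by *fbxa-65* (10.8), *fbxb-47* (10.2), *fbxb-105* (9.26) and *fbxb-72* (8.81). At the first 3 of these the replicate summits lay 10, 24 and 19 bp apart. C-type lectin genes had 11 of 202, 5.45% (2.75 to 9.53), led by *clec-31* (11.2), *clec-142* (10.9), *clec-25* (9.78) and *clec-239* (9.04). Nuclear hormone receptor genes had 11 of 246, 4.47% (2.25 to 7.86), led by *nhr-232* (10.4), *nhr-270* (10.1), *nhr-108* (9.96) and *nhr-142* (9.38). The interval for chemoreceptors lay below 3.26% and those of the other 3 families included it. Other weaker peaks were also less frequent in chemoreceptor promoter windows than in those of all genes, at 25.8% against 32.8%.

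Tissue and chromatin lists had 0 to 6 genes each. Collagens had 6 of 152, 3.95% (1.46 to 8.39), among them *col-38*, *col-179* (11), *dpy-4* (9.34), a cuticle collagen that shapes the body, and *col-171* (8.96). Intestinal genes had 3 of 32: the ion exchanger gene *nhx-2* (10.3), the intermediate filament gene *ifc-2* (8.42) and the protease gene *cpr-3* (7.60). Histones had 2 of 51, 3.92% (0.478 to 13.5), *his-31* (8.34) and *his-42* (7.99). Chromatin regulators had 2 of 29, 6.90% (0.846 to 22.8), the deacetylase gene *hda-2* (9.64) and *cbp-1*, the p300/CBP acetyltransferase gene (8.39). Single genes with a shared peak were *cct-8*, a chaperonin subunit (10.3), *rpn-11*, a proteasome lid subunit (10.9), *atp-2*, an ATP synthase subunit (7.58), *pgl-3*, a germ granule gene (10.3), and *sdc-1* of dosage compensation (8.43). Epidermis, body wall muscle, pharynx, major sperm protein and cell cycle lists had none, in 22, 25, 17, 31 and 26 genes. The upper bounds for these ran from 11.2% to 19.5%. All the intervals of this paragraph included the 3.26% of all genes.

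Counted over promoter and gene body together, 1310 genes held 1 shared peak, 138 held 2, 12 held 3 and 2 held 4. The genes with 4 were *cox-6B*, a cytochrome oxidase subunit gene annotated over 87197 bp on III, and *him-4*, the hemicentin gene of the extracellular matrix, over 36200 bp on X. At *cox-6B* a pair of neighbouring pooled peaks rested on the same peak of each replicate, so the 4 pooled peaks rest on 3 pairs of replicate peaks. The remaining ones also lay in promoter windows of *gldi-9* and Y71H2AM.6, which are annotated within the same span. The *him-4* peaks had pooled signals of 10.5 at its 5′ end, 11.1 in the exon shared with F15G9.5, 9.07 in an intron and 9.44 in an exon. The summit in the intron lay 201 bp from that of one of the 3000 strongest peaks. F10G7.10, the first by name of those with 3, had signals of 7.29, 7.02 and 7.59. Long genes offer more room for peaks, and *cox-6B* and *him-4* also held 17 and 8 other weaker peaks.

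At the loci named in the strain's genotype, 1 shared peak lay within 10 kb of *unc-119*, in an exon of *com-1* at 10899091 to 10899370 on III. It had a pooled signal of 10.3 and replicate summits 35 bp apart, and 4 other weaker peaks and 1 of the 3000 strongest also lay there. The *ztf-11* locus is on chromosome I, outside the regions described.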

How the data were processed

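The relaxed peak lists of the eGFP-ZTF-11 experiment were used, 1 for each of the 2 replicates and 1 for the pooled replicates, in ce11, with the ce10 lists as an alternative. Per the labels, fragments were 150 to 350 bp. The lists were deposited as input for IDR. Sources used here do not give the peak caller, the aligner or the settings. Control alignments were not analysed here. The deposited signal value of each peak has no stated scale and was used only to rank peaks within a list. The deposited −log10 of the q value was read for its range only.

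Overlaps, summit distances, base composition and motifs were computed from the lists, Ensembl release 115 genes and the RefSeq genome. Rank is by signal, ties by chromosome and start. Genes were assigned by summit position: promoter window first, then gene body, then the nearest 5′ end. Of the entries of the 29 gene lists, 8 matched no protein-coding gene. The members and lists were chosen with earlier results of these data known. Peaks named are the 10 with the smallest sum of replicate ranks, the 5 with the highest pooled signal, up to 4 genes per list, the 3 genes with the most peaks and those within 10 kb of *ztf-11* or *unc-119*. The alternatives in the closing section changed the rank limit, the overlap rule, the replicate lists, the build and the windows. Bands of G and C content, peaks away from stronger peaks and replicate peaks not on a stronger peak were added after the data were seen. Overlap and annotation steps were tested on simulated data. The tools were pandas 2.3.3, numpy 2.4.6 and scipy 1.17.1 under Python 3.11.15, with figures drawn by matplotlib 3.10.9.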

Additional observations from a re-analysis of the deposited data

How the results depend on the processing

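The number of shared weaker peaks, 1732, was 2147 when only the 1000 strongest were dropped and 1753 in the ce10 lists. It was 939 when 10000 were dropped, 794 when each replicate had to cover 50% of the pooled peak, 511 with a summit of any peak of each replicate within 100 bp of the pooled one (477 of the 1732 when only the strongest overlapping peak of each replicate counts) and 240 with the 10000 strongest peaks of each replicate. Leaving out a replicate gave 5167 to 13509. The promoter share of 29.5% was 32.5% with the 10000 strongest peaks of each replicate, 17.7% and 50.9% with the narrower and wider window, and 27.1% to 28.8% without a replicate. The share on X was 23.7% with 50% covered and 22.1% to 22.9% without a replicate. The median G and C content of 39.3% was 40.8% with 50% covered, 40.3% with summits within 100 bp, 39.6% with the 10000 strongest of each replicate, 40.6% over 50 bp to either side and 34.3% to 40.8% without a replicate. The share within 1000 bp of a stronger peak was 9.58% with the 10000 strongest of each replicate, 4.04% to 5.94% without a replicate, and 3.92% without replicate peaks that lay on a stronger pooled peak, a filter that removes only peaks beside a stronger one. The share with replicate summits within 100 bp was 34.2% and 26.8% with 1000 and 10000 dropped, 57.3% with 50% covered, which itself requires closeness, and 20.8% with the 10000 strongest of each replicate. For the other changes the cause was not tested. Distance to the 3000 strongest was not run with 1000 dropped, since some peaks would then be their own neighbours. No paired analysis was possible because there is 1 group and no test was made. Without read counts, how far depth limits the overlaps is unknown.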
